A study of Mus musculus with 30 samples.

Results

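Kidney RNA-seq libraries from mice fed a Western diet (WD) and given cyclo histidine-proline (CHP) were compared with those of WD-fed mice given water. The comparison took the kidney libraries labelled with each group, 5 WD + CHP and 5 WD, 10 of the 30 libraries of the series. All mice were wild-type C57BL/6J males housed at 30 to 32 °C from 6 weeks of age, and the WD, with 21% fat and 35% sucrose, was fed from Week 7 to Week 24. From Week 7 CHP was given by gavage, 20 mg/kg on 3 occasions a week, the WD mice received water in its place, and all were euthanised at Week 24 after a fast of 3 h. A further 5 kidney libraries came from mice on the control diet (CD) with water, and 15 came from gastrocnemius muscle in the same 3 groups. The study turned to the kidney to ask whether an action of CHP reaches organs other than the liver. No group received CHP on the CD, so an effect of CHP apart from the diet cannot be told apart from one that needs it.

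CHP is a cyclic dipeptide of histidine and proline that occurs in the body and can form when thyrotropin-releasing hormone (TRH) is broken down. The kidney clears such small peptides, and its proximal tubule takes up filtered proteins and peptides, handles organic anions and burns fatty acids as its main fuel. The other compartments of the organ are the glomerulus with its podocytes, the distal segments of the tubule, the vessels, the interstitial fibroblasts and resident immune cells. The RNA is that of bulk tissue, so fewer cells of a type and less RNA per cell cannot be told apart in what follows.

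Each kidney library held 37189192 to 38211422 counted reads, and mitochondrial transcripts took 17.8% to 21.1% of them. The labels give kidney as the tissue but frozen liver as the material of the extraction. All 15 markers of the proximal tubule were detected above the filter on low counts in these libraries, with a summed level of 37600 to 47000 CPM (counts scaled to library size) over both WD groups, while *Alb*, the liver's albumin, lay between 14.9 and 27.8 CPM in 9 of the 10 libraries. A pair of libraries stood apart on named genes. WD replicate 5 held *Alb* at 424 CPM, *Apoa1* at 55.4 CPM and *Apoa2* at 44.8 CPM, transcripts of hepatocytes. WD + CHP replicate 5 held the organic anion transporter *Slc22a7* at 16.2 CPM and lipoprotein lipase (*Lpl*) at 242 CPM, against at least 97.7 and 556 CPM in the other WD + CHP libraries. Several values below are given with and without these libraries. By the study's methods RNA was sequenced mouse by mouse, so p-values measure the spread between mice of a group.

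CHP changed few kidney genes past the test, and nearly all of those went up. Of 17120 genes tested, 18 (0.105%) passed edgeR's quasi-likelihood test at a Benjamini-Hochberg adjusted p under 0.05, of which 17 (0.0993%) were upregulated and 1 (0.00584%), *Actb*, was downregulated. The upregulated genes rose by 0.25 to 1.32 on the log2 scale, and without *Lcor* by at most 0.42. The median size of the change over the 18 genes was 0.32. For comparison, the fold changes of all genes had a median of -0.0058 and quartiles at -0.083 and 0.067, and the common biological coefficient of variation was 9.62%. At an unadjusted p under 0.05 lay 1958 genes (11.4%), 1080 higher (6.31%) and 878 lower (5.13%) in WD + CHP. In 404 genes (2.36%) the WD + CHP and WD libraries did not overlap, with 261 (1.52%) higher and 143 (0.835%) lower. DESeq2 called 194 genes (1.13%), 168 of them higher, and limma-voom 25, and both lists held all 18 genes.

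The number of calls moved with single libraries and with the fit. With the CD libraries kept out of the model, 0 genes passed in edgeR while 1991 lay at an unadjusted p under 0.05, and DESeq2 and limma-voom in the full design called 194 and 25. The edgeR count was also 0 when any 1 of 5 libraries was dropped, WD replicates 1, 4 and 5 and WD + CHP replicates 3 and 4, where in that order 1743, 1778, 1677, 1626 and 1589 genes had an unadjusted p under 0.05. Dropping WD + CHP replicate 2 left 7 calls, and without WD replicate 2, WD + CHP replicate 1 or WD + CHP replicate 5 it was 97, 45 and 47. None of the 18 genes overlapped between the groups, so their direction was bound to hold when 1 library was left out. In the 10 fits that left out a library of the compared groups, each of the 18 passed in 3 to 5. Their adjusted p in edgeR ranged there from 0.0083 to 0.14.

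**Figure D1:**
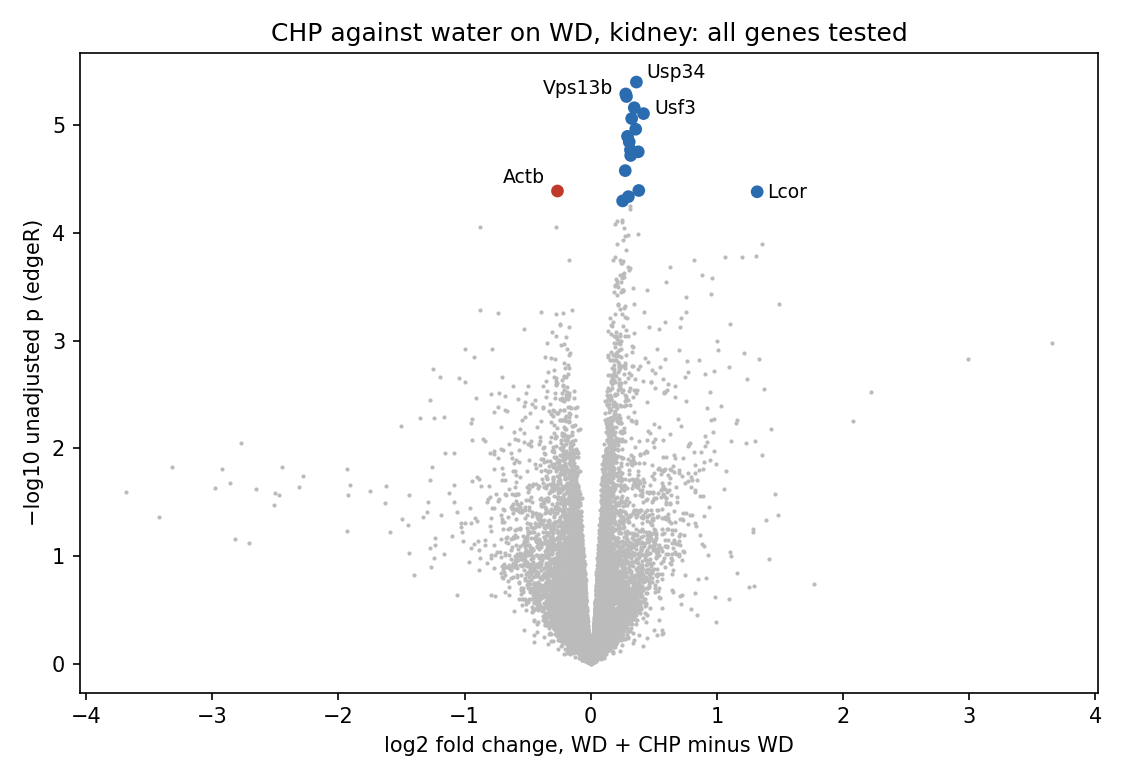
Each point is 1 of the 17120 genes tested, with the log2 fold change of WD + CHP over WD on the x axis and the −log10 of edgeR's unadjusted p on the y axis. The 17 genes upregulated past the threshold are blue, the downregulated *Actb* is red, and *Lcor*, at 1.32, lies far to the right of the other 16.

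The 17 upregulated genes are given here by what each is known to do, an order made by hand and not tested. The deubiquitinase gene *Usp34* had the smallest p. Its level was 48.7, 56.1, 56.5, 52.2 and 54.4 CPM in the 5 WD libraries and 64.8, 67.97, 75.1, 72.6 and 63.8 CPM in the WD + CHP libraries, a log2 fold change of 0.36 ± 0.05 (SE, n = 5 per group, edgeR adjusted p = 0.0246). The lowest treated library was above the highest untreated one, as in each of the 17 upregulated genes. *Usp9x*, an X-linked deubiquitinase, ranged from 75.1 to 95.3 CPM in WD and from 102 to 124 CPM in WD + CHP (0.38 ± 0.06).

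Among the genes of membrane traffic, *Vps13b* and *Vps13d* encode bridge-like proteins that pass lipids between membranes. *Vps13b* stood at 45.5, 50.8, 48.3, 48.5 and 49.2 CPM in WD and at 55.7, 55.8, 60.7, 60.3 and 61.2 CPM in WD + CHP, with a log2 fold change of 0.28 ± 0.04 (edgeR adjusted p = 0.0246). Between WD and CD, where 1652 genes passed (9.65%, with 791 higher on WD, 4.62%, and 861 lower, 5.03%), it was the only 1 of the 17 past the threshold, lower on WD (-0.17, edgeR adjusted p = 0.0201). *Vps13d* ranged from 96.2 to 114 CPM in WD and from 124 to 134 CPM in WD + CHP, and *Dmxl2*, which takes part in the assembly of the proton pump of vesicles, from 43.2 to 52.03 and from 54.5 to 62.9 CPM. *Pkhd1* encodes fibrocystin, a protein of the primary cilium of tubule and bile duct cells whose loss causes recessive polycystic kidney disease. It was measured at 118, 137, 125, 120.4 and 124 CPM in WD and 152, 153, 166, 170 and 152 CPM in WD + CHP (0.35 ± 0.05, edgeR adjusted p = 0.0246). *Ttll4*, an enzyme that adds glutamate chains to tubulin, ranged from 49.8 to 56.4 CPM and from 61.6 to 69.05 CPM in the same order.

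A pair of the genes build the nuclear pore. *Ranbp2*, a nucleoporin of its cytoplasmic filaments, ranged from 81.3 to 102 CPM in WD and from 104 to 127 CPM in WD + CHP. *Ahctf1*, which seeds the assembly of pores on chromatin, ranged from 41.8 to 46.7 CPM in WD and from 48.97 to 61.1 CPM in WD + CHP. A further pair serve DNA replication and repair. The checkpoint kinase gene *Atr* stood at 14.2, 16.8, 17.2, 15.6 and 15.6 CPM in WD and within a narrow band of 19.2 to 19.9 CPM in WD + CHP (0.30 ± 0.05). *Rev3l*, the catalytic subunit of a polymerase that copies damaged DNA, ranged from 20.1 to 22.4 CPM and from 25.7 to 27.2 CPM.

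The transcription regulators among the 17 were *Lcor*, *Usf3* and *Chd9*. *Lcor*, a corepressor that binds nuclear receptors in the presence of ligand, had the largest change of the 18 genes and the lowest level. It was counted at 1.58, 3.79, 3.11, 3.59 and 2.61 CPM in WD and 5.04, 7.64, 8.12, 9.18 and 6.68 CPM in WD + CHP, 2.49-fold in the means and 1.32 ± 0.24 on the log2 scale (edgeR adjusted p = 0.0442). WD replicate 1 was the lowest and WD + CHP replicate 4 the highest, and the CD libraries, at 1.36, 3.79, 2.56, 2.24 and 1.83 CPM, overlapped the WD group. *Usf3*, a helix-loop-helix factor, stood at 43.6, 53.9, 50.1, 43.97 and 49.2 CPM in WD and 59.5, 63.3, 71.1, 67.05 and 60.8 CPM in WD + CHP (0.42 ± 0.07, edgeR adjusted p = 0.0246). *Chd9*, a chromatin remodeller that can bind PPARα, ranged from 28.04 to 33.7 CPM in WD and from 35.4 to 40.5 CPM in WD + CHP.

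Signalling genes made up the rest. *Rictor*, the defining subunit of mTOR complex 2, ranged from 22.5 to 26.3 CPM in WD and from 28.3 to 32.6 CPM in WD + CHP. *Dgkh*, a kinase that turns diacylglycerol into phosphatidic acid, ranged from 36.6 to 45.4 CPM and from 48.7 to 60.3 CPM, and *Ptpn4*, a tyrosine phosphatase, from 30.1 to 34.2 CPM and from 36.8 to 38.4 CPM. Against the CD libraries, 16 of the 17 genes were also higher in WD + CHP past the test, where 6.25% of all genes were, in a comparison that shares the WD + CHP libraries with the main one. The exception was *Vps13b* (0.11, edgeR adjusted p = 0.0970). Annotated genes overlap 9 of the 18 loci, and since the counting rule and strand are not given in the sources used here, reads of such neighbours could be part of those counts.

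**Figure D2:**
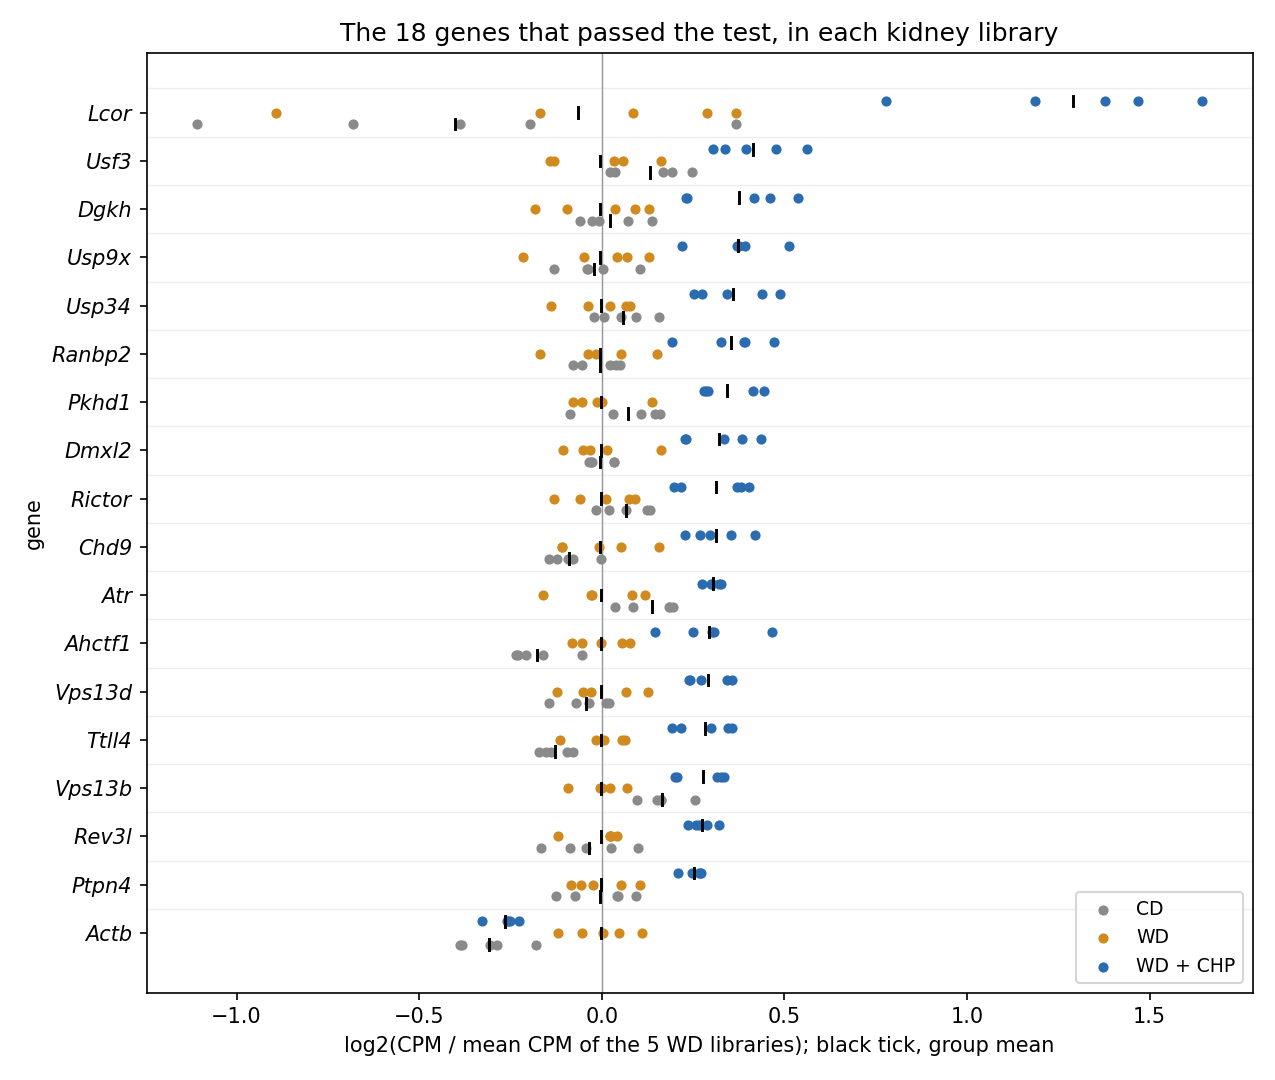
For each of the 18 genes (y axis), points give the 5 libraries of CD (grey), WD (orange) and WD + CHP (blue) as log2 of CPM over the mean CPM of the WD group (x axis), and black ticks mark group means. In all 17 upregulated genes the blue points lie to the right of the orange ones, and in *Actb* to their left.

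The 300 bases around the start of the upregulated genes (250 before to 50 after, RefSeq, build GRCm38.p6) were searched for 4 short motifs on both strands, since the genes moved together. RefSeq windows were found for 14 of the 17 genes, and *Vps13b*, *Usp9x*, *Rev3l* and *Actb* had none. The GC box core GGGCGG was present in 9 of the 14 windows (64.3%) and in 35.7% of all 32851 windows, and the median GC content of the windows was 68.3% against 52.7%. The CCAAT motif was found in 2 of 14 (14.3%, against 37.4% of all), TATAAA in 2 (14.3%, against 13.6%) and the E-box CACGTG in 2 (14.3%, against 7.15%). The windows of *Usp34*, with the smallest p, of *Lcor* and *Usf3*, with the largest changes, and of *Pkhd1*, the kidney disease gene of the set, are given below 5′ to 3′, with matches to any of the 4 motifs in capitals. *Usp34* lies at chr11:23306645-23306944 (plus strand), *Lcor* at chr19:41482432-41482731 (plus), *Usf3* at chr16:44173147-44173446 (plus) and *Pkhd1* at chr1:20618008-20618307 (minus).
Usp34: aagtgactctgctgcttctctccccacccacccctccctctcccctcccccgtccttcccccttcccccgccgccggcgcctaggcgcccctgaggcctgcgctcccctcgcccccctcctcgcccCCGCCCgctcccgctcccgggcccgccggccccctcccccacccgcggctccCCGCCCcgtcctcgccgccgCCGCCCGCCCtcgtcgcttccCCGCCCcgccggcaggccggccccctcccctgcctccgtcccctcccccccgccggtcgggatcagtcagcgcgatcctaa
Lcor: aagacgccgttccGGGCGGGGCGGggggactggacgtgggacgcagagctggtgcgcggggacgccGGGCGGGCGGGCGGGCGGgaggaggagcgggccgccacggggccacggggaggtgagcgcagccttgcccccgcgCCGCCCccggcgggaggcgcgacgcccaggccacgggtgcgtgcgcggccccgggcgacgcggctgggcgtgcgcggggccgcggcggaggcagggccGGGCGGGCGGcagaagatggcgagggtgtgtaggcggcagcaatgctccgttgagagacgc
Usf3: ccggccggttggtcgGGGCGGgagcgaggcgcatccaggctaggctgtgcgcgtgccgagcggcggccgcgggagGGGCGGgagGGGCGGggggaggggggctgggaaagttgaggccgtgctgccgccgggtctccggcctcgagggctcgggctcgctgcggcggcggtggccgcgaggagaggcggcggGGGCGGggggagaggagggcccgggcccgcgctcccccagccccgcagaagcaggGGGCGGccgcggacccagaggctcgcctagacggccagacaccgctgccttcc
Pkhd1: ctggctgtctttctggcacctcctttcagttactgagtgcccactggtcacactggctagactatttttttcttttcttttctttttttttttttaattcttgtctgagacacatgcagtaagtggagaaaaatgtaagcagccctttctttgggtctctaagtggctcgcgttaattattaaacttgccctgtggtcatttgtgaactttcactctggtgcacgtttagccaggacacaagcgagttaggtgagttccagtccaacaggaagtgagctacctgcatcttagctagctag
The *Usp34*, *Lcor* and *Usf3* windows hold 5, 9 and 5 GC box cores, some of them overlapping in *Usp34* and *Lcor*, and none of the other 3 motifs, and the *Pkhd1* window, at 43.3% GC, holds none of the 4. A match is a sequence of letters in these windows and no measured binding site.

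The upregulated genes shared 2 features that the test did not use, long transcripts and a low GC content. The longest annotated transcript of the 17 genes measured 4.83 to 15.8 kb, with a median of 10.9 kb, against 3.07 kb over all genes. Transcripts over 8 kb made up 4.90% of the genes tested and 16 of the 17, all but *Lcor*. All 17 had a transcript GC content under the median of all genes (38.4% to 49.2%, against a median of 49.4%). This pattern ran through the whole table. The median log2 fold change was -0.018 in the shortest decile of transcripts and 0.044 in the longest, where 402 genes (23.5%) were higher and 70 (4.09%) lower at an unadjusted p under 0.05. It fell from 0.041 in the decile with the lowest GC content to -0.056 in that with the highest.

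By library, the median of the lowest GC decile (centred log2 CPM) lay between -0.061 and 0.019 in WD and between 0.0093 and 0.075 in WD + CHP, and the groups overlapped. With a correction for length and GC content fitted to each library, edgeR called 0 genes, and 1789 lay under an unadjusted p of 0.05. All 18 genes kept their direction and an unadjusted p under 0.05 there, at corrected log2 fold changes of 0.15 to 1.28 for the 17 and -0.24 for *Actb*, and their adjusted p ranged from 0.066 to 0.30. WD vs. CD did not run the same way with GC content, at medians of 0.0067 in the lowest decile and 0.018 in the highest.

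**Figure D3:**
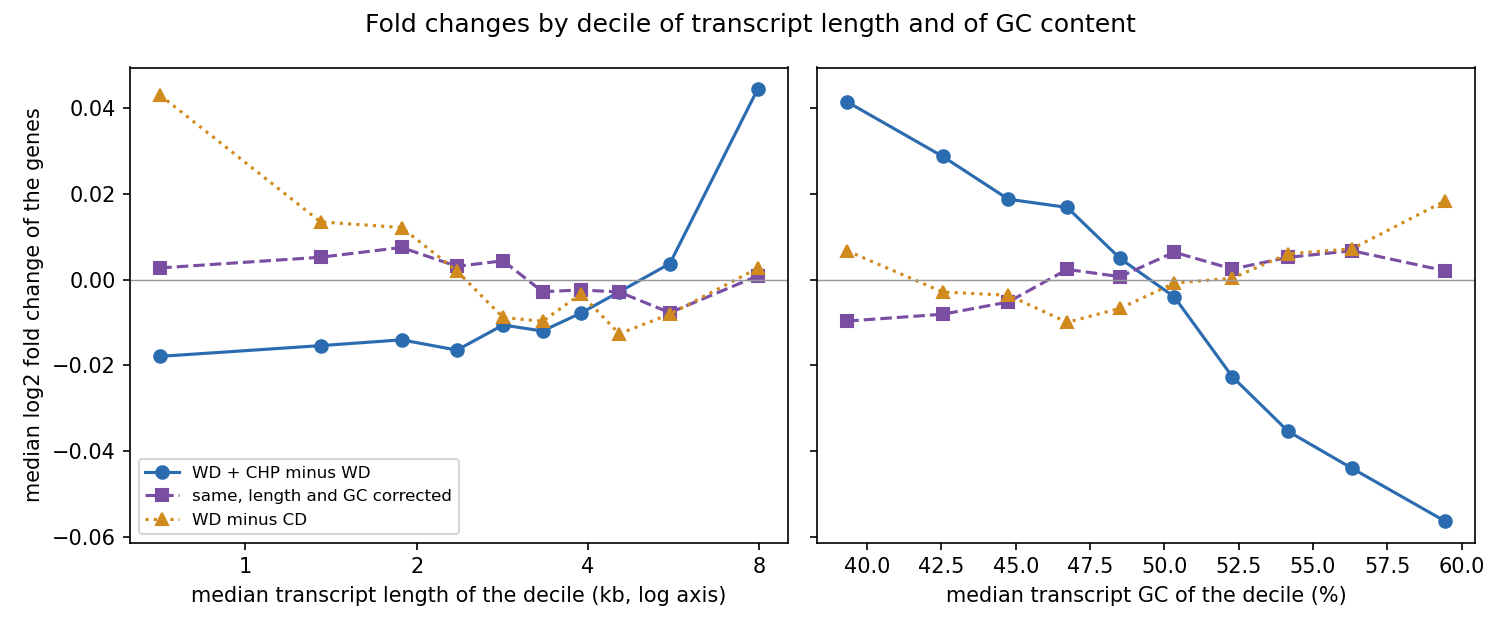
Median log2 fold change (y axis) of genes in deciles of transcript length (left, log axis in kb) and transcript GC content (right, in percent), for WD + CHP minus WD as fitted (blue circles), after the length and GC correction (purple squares), and for WD minus CD (orange triangles). The blue line rises from -0.018 to 0.044 with length and falls from 0.041 to -0.056 with GC content, and the corrected line stays close to 0, from -0.0097 to 0.0067 over the GC deciles.

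*Actb*, which encodes the cytoskeletal β-actin often used as a reference gene, was the single downregulated gene. It stood at 806, 771, 687, 749 and 719 CPM in WD and 625, 637, 595, 624 and 628 CPM in WD + CHP (-0.26 ± 0.05, edgeR adjusted p = 0.0442). Its levels in the CD libraries were 658, 604, 611, 571 and 572 CPM, and WD against CD gave 0.31 ± 0.05 (edgeR adjusted p = 0.00101). The comparisons share the WD libraries. *Actg1*, the other cytoskeletal actin, stood at 388, 382, 354, 410 and 371 CPM in WD and 352, 308, 306, 326 and 355 CPM in WD + CHP. That difference of -0.21 ± 0.07 did not pass (edgeR adjusted p = 0.248), and the groups overlapped by a single pair of libraries.

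Of 48 tested genes of the actin cytoskeleton, 1, *Actb* itself, passed, where 0.00584% of all genes were downregulated past the test. On the list 35 were lower and 13 higher in WD + CHP, and 11 had an unadjusted p under 0.05, all lower (22.9%, against 5.13% of all genes). The list's median was -0.07 on the log2 scale, against -0.0058 over all genes, and -0.03 after the length and GC correction. *Acta2* and *Tagln* are also on the list of mural cell markers, and all 8 mural, 8 fibroblast and 10 endothelial markers had lower values in WD + CHP too. Their part in the values of the actin list was not tested. *Tpm3*, a tropomyosin, did not overlap between the groups, at 111 to 116 CPM in WD and 104 to 107 CPM in WD + CHP, but did not pass (-0.09 ± 0.03, edgeR adjusted p = 0.233).

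The 8 largest rises and falls among genes with no overlap between the groups, an unadjusted p under 0.05 and a mean log2 CPM of at least 1 were chosen for their size, so their values are a description. After *Lcor*, the rises were led by *Cntnap5a*, a neurexin-like adhesion protein, at 4.43, 2.33, 3.30, 4.04 and 2.92 CPM in WD and 4.86, 4.57, 11.3, 12.6 and 4.79 CPM in WD + CHP (1.16 ± 0.36). WD + CHP replicates 3 and 4 were the high ones. *Ano3*, of the anoctamin family, was at 2.37 to 4.26 CPM and 4.52 to 8.39 CPM, with CD libraries at 2.40 to 9.13 CPM. *Klhl11*, an adaptor of ubiquitin ligases, was at 0.950 to 2.15 and 2.40 to 3.08 CPM, and *Exph5*, a partner of the vesicle protein RAB27, at 4.54 to 8.22 and 8.72 to 10.9 CPM. The rest were the zinc finger gene *Zfp971* (0.49 ± 0.13), the transcript *9230114K14Rik* (0.48 ± 0.13) and the locus *Gm43980* (0.63 ± 0.13), which overlaps the splicing factor gene *Tra2a*. None of these 7 passed the adjustment (edgeR adjusted p 0.0746 to 0.262).

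The 8 falls are described in the same way. *Atoh8*, a helix-loop-helix factor of endothelial and other cells, was at 4.67, 5.35, 4.09, 3.32 and 4.75 CPM in WD and 2.92, 2.74, 3.09, 2.83 and 3.06 CPM in WD + CHP (-0.60 ± 0.20). *Snai1*, a repressor that drives epithelial cells towards a mesenchymal state, was at 3.59, 2.33, 2.60, 2.32 and 2.66 CPM and 1.62, 1.86, 1.89, 2.19 and 1.92 CPM (-0.51 ± 0.15), with the CD libraries at 1.45 to 2.27 CPM. *Lrp1*, an endocytic receptor of mesenchymal cells and macrophages, was at 71.3, 66.6, 57.5, 56.3 and 62.6 CPM and 51.1, 50.2, 48.9, 49.3 and 42.7 CPM, with WD + CHP replicate 5 the lowest. *Ppp1r14a*, which inhibits myosin phosphatase in smooth muscle, was at 2.46 to 2.89 CPM in WD and 1.89 to 2.37 CPM in WD + CHP. The 4 others were the sugar phosphate exchanger *Slc37a2* (-0.46 ± 0.14), the CDC42 effector *Cdc42ep3* (-0.38 ± 0.11), the hedgehog acyltransferase *Hhat* (-0.37 ± 0.13) and *Cpne2* (-0.43 ± 0.14), of which WD replicate 5 held 11.2 CPM and the other WD libraries at most 6.69. Without WD replicate 5 the fall in *Cpne2* was -0.22. None of the 8 passed (edgeR adjusted p 0.172 to 0.270).

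*Slc22a7* and *Lpl* differed widely between the group means without passing the adjustment. *Slc22a7*, which carries organic anions across the basolateral side of tubule cells, stood at 174, 179.6, 226, 178 and 180.3 CPM in CD, 30.1, 23.03, 39.8, 26.96 and 42.7 CPM in WD and 122, 114, 106, 97.7 and 16.2 CPM in WD + CHP. WD + CHP replicates 1 to 4 all lay above the WD libraries and replicate 5 below them. Over all 5 the log2 fold change was 1.49 ± 0.34 (edgeR adjusted p = 0.1003), and without replicate 5 it was 1.76 ± 0.14 (edgeR adjusted p = 2.84e-05). *Lpl*, which frees fatty acids from circulating triglycerides, stood at 1093, 727, 819.5, 593 and 594 CPM in CD, 286, 278, 416, 353 and 259 CPM in WD and 652, 826, 707, 556 and 242 CPM in WD + CHP. It gave 0.91 ± 0.25 over all libraries (edgeR adjusted p = 0.162) and 1.11 ± 0.17 without WD + CHP replicate 5 (edgeR adjusted p = 0.0159).

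Without WD + CHP replicate 5, 47 genes passed, 41 higher and 6 lower, including all 18. Chosen here after their values were seen, the steroid and aldehyde reductase genes *Akr1c18* (1.66 ± 0.22) and *Akr1c14* (0.46 ± 0.07), the medium-chain acyl-CoA synthetase *Acsm3* (1.12 ± 0.22) and the carboxypeptidase *Cpe* (1.06 ± 0.13) were among the higher ones. The phosphate transporter *Slc34a3* (-0.29 ± 0.05) and the proton pump subunit *Atp4a* (-0.33 ± 0.06) were among the lower ones. What sets replicate 5 apart was not tested.

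Several genes of fatty acid and sterol metabolism were higher in WD + CHP at an unadjusted p without passing the adjustment. *Gpam*, which starts triglyceride synthesis, did not overlap between the groups, at 61.4, 73.2, 69.6, 66.8 and 63.3 CPM in WD and 74.95, 75.6, 76.4, 89.9 and 89.4 CPM in WD + CHP (0.28 ± 0.07, edgeR adjusted p = 0.147). *Acaca*, acetyl-CoA carboxylase, differed by 0.27 ± 0.07. Of 34 tested genes of fatty acid and triglyceride synthesis, 20 were higher and 14 lower, 5 and 1 at an unadjusted p under 0.05 (14.7% and 2.94%, against 6.31% and 5.13% of all genes). The list's median was 0.041, or 0.0195 without WD + CHP replicate 5, 0.063 without WD replicate 5 and 0.09 with the length and GC correction.

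Of 28 genes of cholesterol synthesis and uptake, 0 passed in edgeR, 19 were higher, 7 of them at an unadjusted p under 0.05 (25%, against 6.31% of all genes), and 9 were lower, 2 of them at that p. *Insig1*, a sterol-regulated brake on cholesterol synthesis, was at 36.6 to 46.2 CPM in WD and 46.1 to 59.3 CPM in WD + CHP (0.35 ± 0.10). The cholesterol exporter *Abca1* was at 26.2 to 38.7 and 34.5 to 55.5 CPM. *Idi1*, an enzyme of isoprenoid synthesis, was at 15.7 to 23.6 CPM in WD and 19.02 to 28.1 CPM in WD + CHP, where replicate 5 was again the lowest, and at 27.1 to 45.2 CPM in CD. DESeq2 called *Slc22a7*, *Lpl*, *Gpam*, *Acaca* and *Insig1*, at adjusted p of 0.0181, 0.0428, 0.0290, 0.0383 and 0.0475.

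Of 45 genes of fatty acid oxidation and PPARα targets, 0 passed in edgeR, 31 were higher and 14 lower, 8 and 2 at an unadjusted p under 0.05 (17.8% and 4.44%, against 6.31% and 5.13% of all genes), and the median was 0.04. *Eci2*, an isomerase of the oxidation of unsaturated fatty acids, was at 57.3 to 61.6 CPM in WD and 61.4 to 68.9 CPM in WD + CHP (0.14 ± 0.04), and *Angptl4*, an inhibitor of lipoprotein lipase, at 33.6 to 57.6 and 52.7 to 68.5 CPM. *Acaa2*, the last enzyme of mitochondrial β-oxidation, went the other way, at 136 to 148 CPM in WD and 112 to 136 CPM in WD + CHP (-0.15 ± 0.05).

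**Figure D4:**
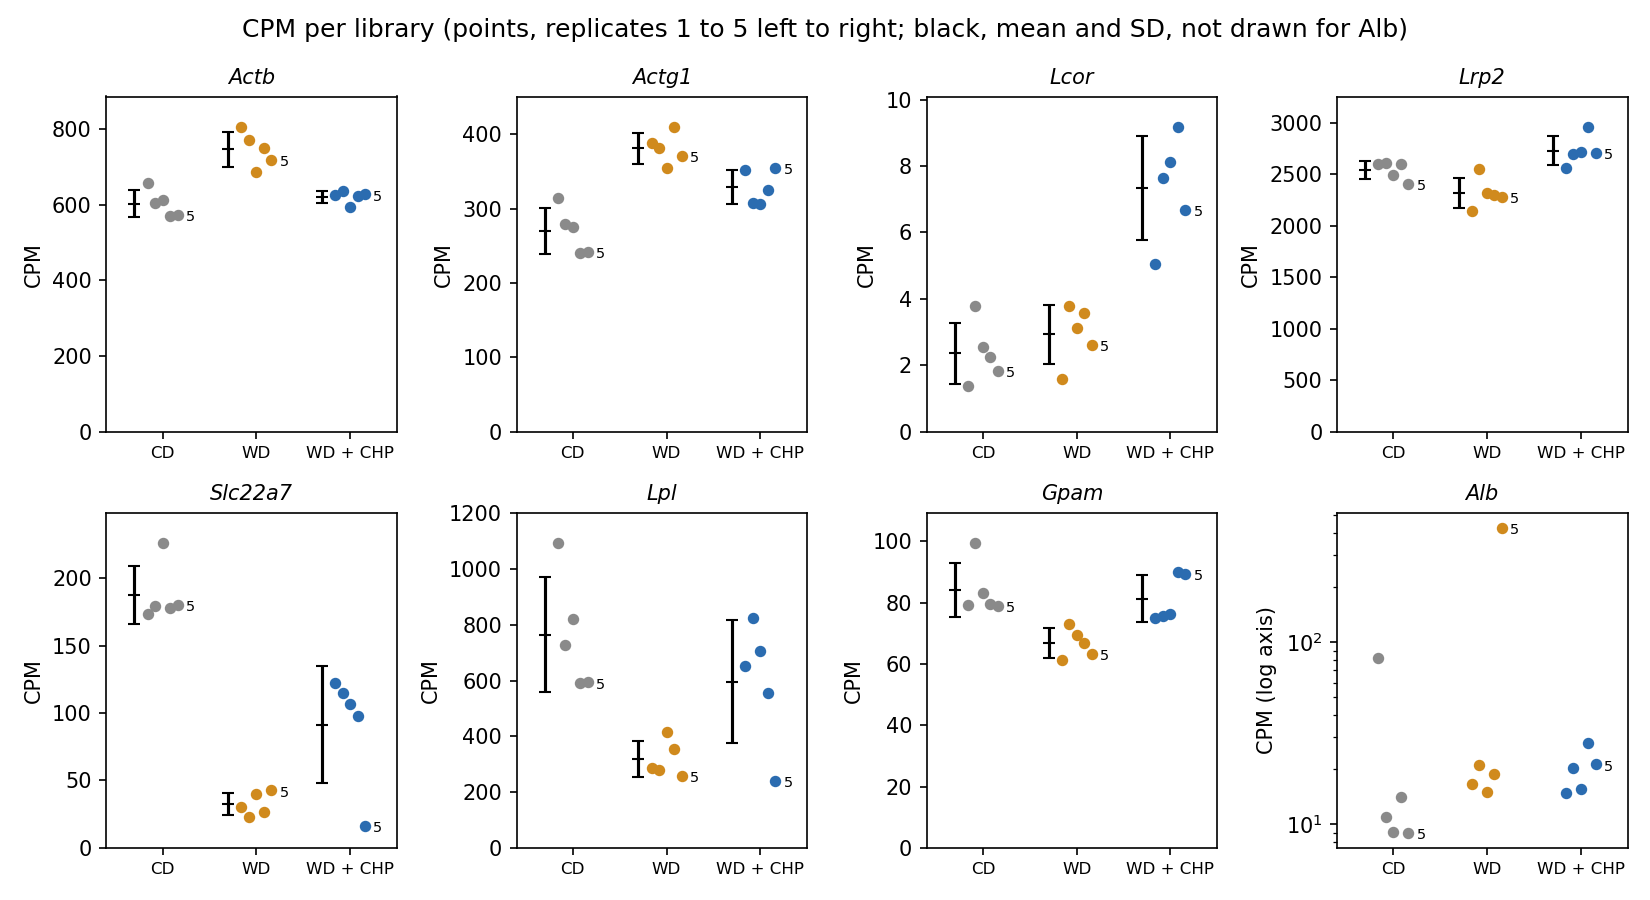
CPM (y axis) of 8 genes in each kidney library of CD, WD and WD + CHP (x axis), with replicate 5 marked, black lines for the mean and SD over 5 libraries (not drawn for *Alb*, which has a log axis). *Actb* sits lower and *Lcor* and *Gpam* higher in all 5 WD + CHP libraries than in any WD library, *Slc22a7* and *Lpl* in WD + CHP replicate 5 lie at 16.2 and 242 CPM, and *Alb* in WD replicate 5 at 424 CPM.

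Of 15 markers of the proximal tubule 0 passed in edgeR, 10 were higher and 5 lower, 3 and 2 of them at an unadjusted p under 0.05 (20% and 13.3%, against 6.31% and 5.13% of all genes), with a median of 0.08. *Lrp2* encodes megalin, the receptor by which the tubule retrieves filtered proteins and peptides. It did not overlap between the groups, at 2140, 2549, 2315, 2300 and 2281 CPM in WD and 2563, 2698, 2716, 2960 and 2710 CPM in WD + CHP (0.24 ± 0.05, edgeR adjusted p = 0.0722), and it was called by DESeq2. Its transcript is 15.5 kb long, and the corrected fold change was 0.15. *Kap*, a protein of the proximal tubule that responds to androgen, was at 14980 to 18130 CPM in WD and 16930 to 22840 CPM in WD + CHP, and *Acsm2*, an acyl-CoA synthetase of the same cells, at 3838 to 4284 and 4245 to 5660 CPM. The 2 lower ones, named after their values were seen, were the organic anion transporter *Slc22a8* (-0.26 ± 0.10) and *Miox*, which breaks down myo-inositol (-0.12 ± 0.04). The 6 markers of the last, S3, segment, *Slc22a7* among them, had a median of 0.11 with 5 higher.

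Markers of the thick ascending limb (7 tested), distal convoluted tubule (5) and intercalated cells (7) gave medians of -0.01, 0.00062 and -0.05, with 0 members at an unadjusted p under 0.05 in edgeR. Without WD + CHP replicate 5 these medians were -0.053, -0.032 and -0.095. All 7 principal cell markers were lower, with a median of -0.05, or -0.083 without WD + CHP replicate 5. Among these *Hsd11b2*, which shields the mineralocorticoid receptor from glucocorticoids, was at 114 to 139.8 CPM in WD and 105 to 121 CPM in WD + CHP (-0.16 ± 0.07). Of 10 podocyte markers 7 were lower, with *Synpo* (-0.15 ± 0.06), *Podxl* (-0.13 ± 0.06) and *Cdkn1c* (-0.17 ± 0.08) at an unadjusted p under 0.05 (30%, against 5.13% of all genes). In *Cdkn1c* WD + CHP replicate 5, at 12.8 CPM, was above all WD libraries while the other 4 were below them, and without it the fold change of *Cdkn1c* was -0.26.

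Genes of vessels and stroma were lower in WD + CHP without any passing the test. The direction held for all 10 endothelial markers, all 8 mural cell markers and all 8 fibroblast markers, with medians of -0.14, -0.18 and -0.19 against -0.0058 over all genes. At an unadjusted p under 0.05 in edgeR lay 5 of the endothelial markers (50%), 1 mural (12.5%) and 1 fibroblast marker (12.5%), where 5.13% of all genes were lower. Summed levels overlapped between the groups, at 649 to 742 CPM in WD and 583 to 685 CPM in WD + CHP for endothelium, 209 to 282 and 185 to 240 CPM for mural cells, and 130.2 to 154 and 106 to 142 CPM for fibroblasts. *Eng*, an endothelial coreceptor for TGF-β family ligands, stood at 146, 138, 122, 148 and 126 CPM in WD and 128, 109, 109, 109 and 95.3 CPM in WD + CHP (-0.31 ± 0.08, edgeR adjusted p = 0.126), and 1 treated library reached into the WD range. *Plvap*, of fenestrated endothelium, was at 130.4 to 164 and 116 to 146 CPM, and *Ehd3*, of glomerular endothelium, at 35.1 to 48.99 and 34.4 to 44.1 CPM. *Pdgfrb*, the receptor of pericytes and other mural cells, was at 48.99, 42.9, 36.5, 39.2 and 36.1 CPM in WD and 35.4, 37.5, 36.8, 35.4 and 24.98 CPM in WD + CHP, and replicate 5 of WD + CHP was far below the rest. Its fold change was -0.26 with that library and -0.17 without it. The fibroblast marker *Pi16* was at 3.64 to 5.28 and 2.90 to 4.33 CPM.

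Of 55 tested genes of the extracellular matrix and fibrosis, 0 passed in edgeR, 47 were lower and 8 higher, and 11 had an unadjusted p under 0.05, all lower (20%, against 5.13% of all genes). The list's median was -0.16, and -0.13 after the length and GC correction. *Timp2*, an inhibitor of matrix metalloproteases, did not overlap between the groups, at 60.4, 62.02, 58.1, 57.8 and 63.1 CPM in WD and 52.9, 53.6, 50.97, 50.2 and 48.01 CPM in WD + CHP (-0.24 ± 0.06, edgeR adjusted p = 0.138). *Vim*, the intermediate filament of mesenchymal cells, was at 30.3 to 37.5 CPM in WD and 26.1 to 31.8 CPM in WD + CHP, and the collagen-binding proteoglycan *Fmod* at 9.73 to 15.3 and 7.46 to 11.5 CPM. Of the fibroblast markers 6 of 8, and of the mural markers *Pdgfrb* and *Acta2*, are also on the matrix list, so these lists are in part the same genes. The part of cell numbers was not tested. Of 19 genes of tubular injury, which share *Timp2* and *Vim*, 8 were higher and 11 lower, 1 and 4 at an unadjusted p under 0.05 (5.26% and 21.1%, against 6.31% and 5.13% of all genes). Among the 4 was the fibrinogen gene *Fgb*, also on the hepatocyte list, and the median of -0.054 was 0.0031 without WD replicate 5 and 0.022 without both replicates 5.

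Most genes of inflammation and of the interferon response had lower values in WD + CHP. Of 41 inflammation genes 32 were lower, 6 of them at an unadjusted p under 0.05 (14.6%, against 5.13% of all genes), and 0 passed in edgeR. *Cxcl12*, a chemokine of stromal cells, was at 142 to 172 CPM in WD and 125 to 144 CPM in WD + CHP (-0.25 ± 0.08), the chemokine *Ccl5* at 1.45 to 2.25 and 0.832 to 1.75 CPM, and the TNF receptor *Tnfrsf1b* at 6.83 to 7.84 and 4.09 to 7.75 CPM. Of 7 T and NK cell markers 6 were lower, with a median of -0.44 at summed levels of 5.14 to 8.51 CPM in WD and 4.63 to 6.32 CPM in WD + CHP. *Cd4* (-0.67 ± 0.20) and the T cell receptor gene *Trbc2* (-0.60 ± 0.22) had an unadjusted p under 0.05 (28.6%, against 5.13% of all genes), and *Cd8a* (-0.44 ± 0.23) did not. The 7 B cell markers (median -0.49) varied widely within each group, from 72.6 to 206 CPM in WD and from 86.7 to 256 CPM in WD + CHP, and 0 of them or of the 11 macrophage markers (median -0.07) had an unadjusted p under 0.05 in edgeR. Without WD + CHP replicate 5 the macrophage median turned to 0.012 and the inflammation median went from -0.073 to -0.030. Of 35 interferon response genes 29 were lower (median -0.12). Only 1, *Oas1a*, had an unadjusted p under 0.05 (2.86%, under the 5.13% of all genes), at 1.93 to 2.68 CPM in WD and 1.34 to 2.17 CPM in WD + CHP.

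**Figure D5:**
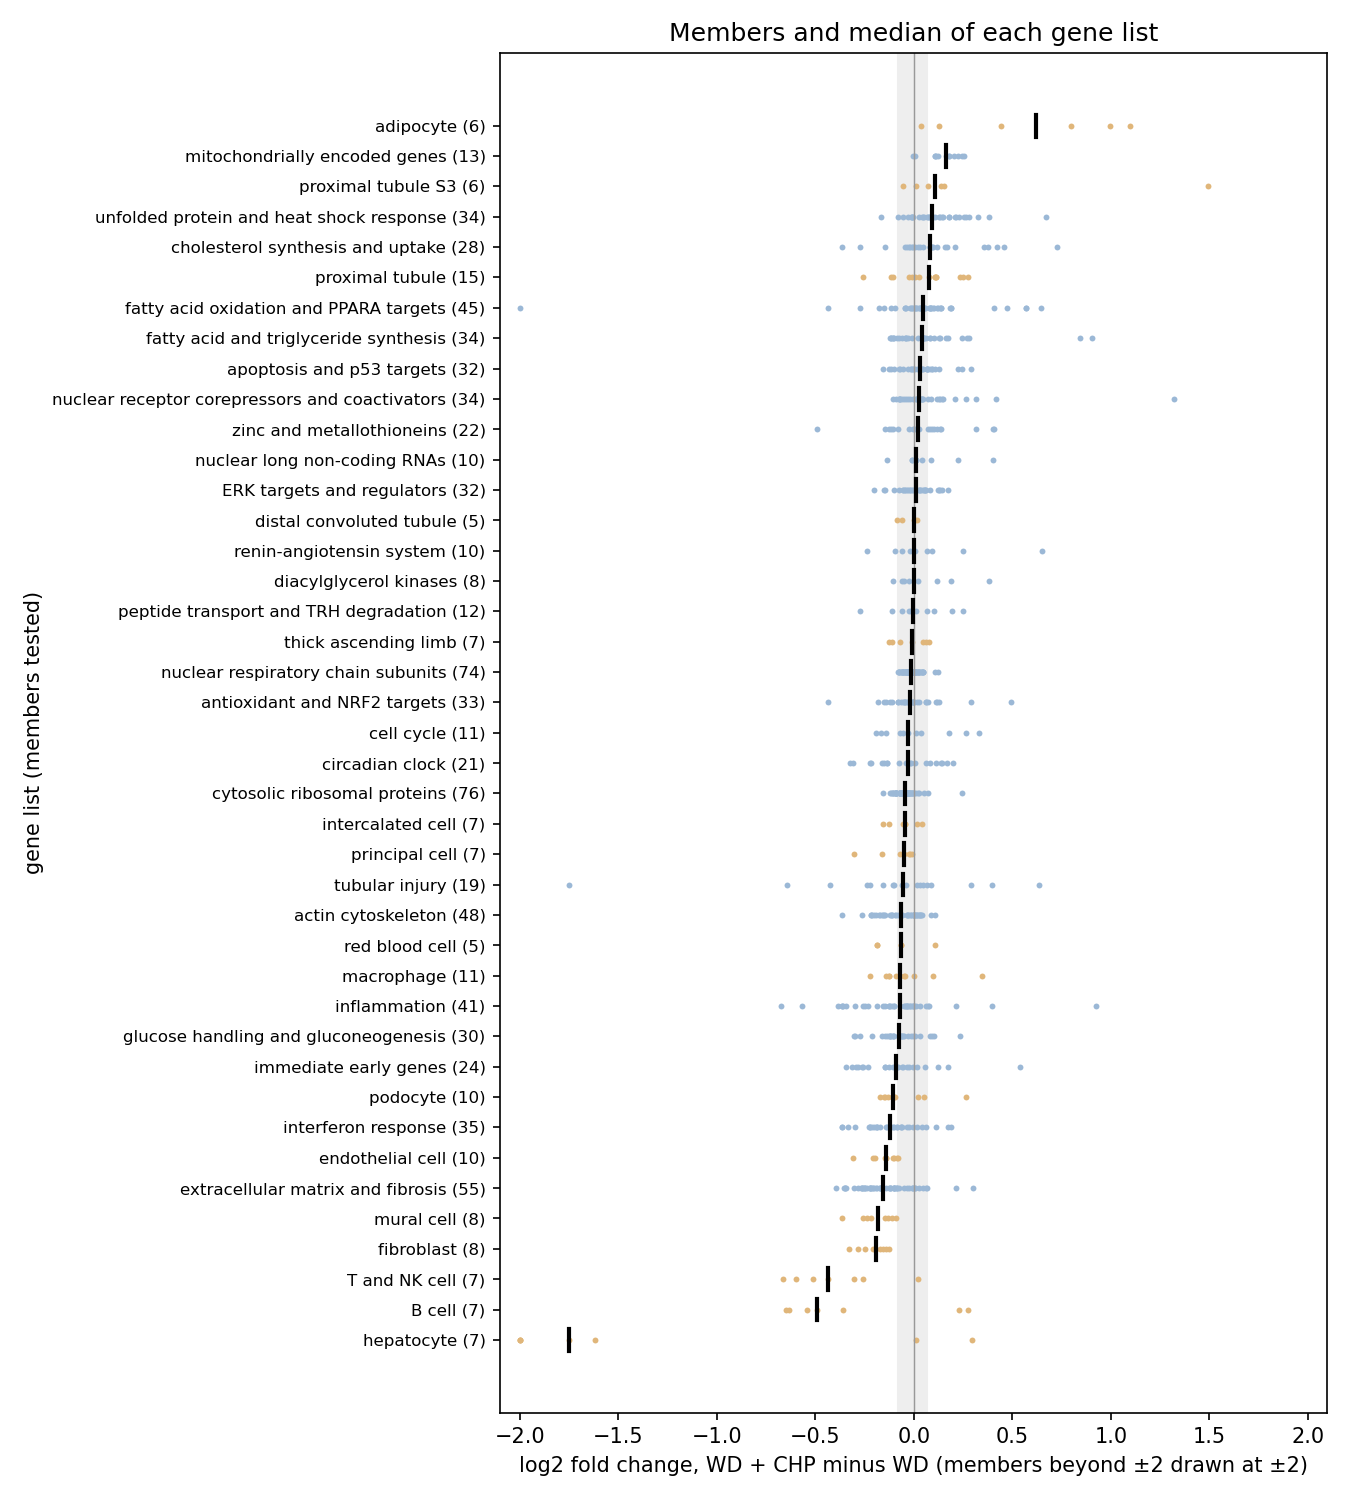
Log2 fold changes of WD + CHP over WD (x axis, members beyond ±2 drawn at ±2) of the members of each gene list with at least 5 tested members (y axis, number in brackets), orange for cell type markers and blue for functions, with a black tick at the list's median and a grey band from the lower to the upper quartile of all genes. Endothelial, mural and fibroblast markers lie wholly left of 0, and the hepatocyte list, with a median of -1.75, rests on WD replicate 5.

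The lowest median of any list, -1.75, belonged to the 7 hepatocyte genes, and it rested on 1 library. *Alb* stood at 16.6, 21.02, 15.1, 18.8 and 424 CPM in WD and 14.9, 20.4, 15.6, 27.8 and 21.3 CPM in WD + CHP, so that only WD replicate 5 was high. Without that library the fold changes of *Alb*, *Apoa1* and *Apoa2* turned from -2.31, -2.97 and -1.62 to 0.17, 0.73 and 0.059, and the list's median to 0.17. A CD library, replicate 1, also held *Alb* at 81.4 CPM. The 6 tested adipocyte markers had a median of 0.62, which turned to -0.15 without WD + CHP replicate 5 and was 1.20 without WD replicate 5 and 0.27 without both. They had 0 members at an unadjusted p under 0.05 in edgeR, and their summed levels were 27.7 to 35.3 CPM in WD and 28.9 to 38.4 CPM in WD + CHP. Of the 8 adrenal markers 1, and of the 8 skeletal muscle markers 2, had enough counts to be tested.

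Of 34 genes of the unfolded protein and heat shock responses 26 were higher, 4 of them at an unadjusted p under 0.05 (11.8%, against 6.31% of all genes), with a median of 0.09. *Asns*, asparagine synthetase, was at 2.72, 2.92, 2.84, 3.83 and 5.01 CPM in WD and 6.14, 5.37, 5.73, 7.24 and 3.08 CPM in WD + CHP, where WD + CHP replicate 5 was the lowest of its group and WD replicate 5 the highest of its own. The chaperones *Hsp90aa1* (301 to 370.1 and 314 to 514 CPM) and *Hsp90ab1* (1120 to 1330 and 1190 to 1565 CPM) overlapped between the groups. Of 33 antioxidant and NRF2 target genes 12 were higher and 21 lower. *Hmox1*, which degrades haem, was at 33.9, 26.1, 29.5, 27.6 and 26.2 CPM in WD and 36.5, 35.3, 33.1, 39.7 and 30.96 CPM in WD + CHP (0.29 ± 0.09, edgeR adjusted p = 0.182), while *Gsr*, glutathione reductase, gave -0.15 ± 0.06 and *Sod3*, the extracellular superoxide dismutase, 0.12 ± 0.05. Among 32 apoptosis and p53 target genes 20 were higher, with *Trp53inp1* (0.22 ± 0.10) and *Diablo* (0.29 ± 0.13) at an unadjusted p under 0.05 (6.25%, against 6.31% of all genes).

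Genes of glucose handling were lower in 24 of 30 cases (median -0.07), 6 of them at an unadjusted p under 0.05 (20%, against 5.13% of all genes), and 0 passed in edgeR. *Pklr*, a pyruvate kinase, was at 37.5 to 46.9 CPM in WD and 27.9 to 38.7 CPM in WD + CHP (-0.28 ± 0.08), *Tkfc*, a kinase of fructose breakdown, at 396 to 503 and 346 to 420 CPM, and the glucose transporter *Slc2a4* at 27.5 to 32.3 and 24.96 to 28.3 CPM. Their levels in CD were 24.9 to 28.1, 334 to 359 and 20.7 to 24.8 CPM. The 74 nuclear subunits of the respiratory chain had 0 members at an unadjusted p under 0.05 in edgeR and a median of -0.02, and the 76 cytosolic ribosomal proteins likewise 0 and -0.04, with 69 lower. Of 13 mitochondrially encoded genes 12 were higher (median 0.16, and 0.07 after the length and GC correction), and *mt-Nd2*, a subunit of complex I, was at 15580 to 18710 CPM in WD and 16360 to 24260 CPM in WD + CHP. In 6 of the 13, *mt-Co2*, *mt-Co3*, *mt-Atp6*, *mt-Atp8*, *mt-Nd3* and *mt-Nd4l*, no library of the 10 held more than 751 counts, while the other 7 held at least 86019 counts in each, so the list's median rests in part on genes with few counted reads.

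Targets and regulators of the ERK cascade were split, 17 higher and 15 lower of 32, with a median of 0.01 against -0.0058 over all genes. *Braf*, a kinase at its top, gave 0.17 ± 0.05, the exchange factor *Sos1* 0.12 ± 0.05 and *Map2k1*, MEK1, -0.10 ± 0.04, and none passed (edgeR adjusted p 0.168 to 0.409). Of 24 immediate early genes, which ERK and other signals switch on within minutes, 19 were lower, *Klf4* (-0.34 ± 0.10) and the flow-induced *Klf2* (-0.32 ± 0.13) at an unadjusted p under 0.05 (8.33%, against 5.13% of all genes). Their median of -0.09 was -0.042 without WD + CHP replicate 5 and -0.010 without both replicates 5. A list of 34 nuclear receptor coregulators, chromatin regulators and USF factors was chosen with results of these data known and holds *Lcor*, *Chd9* and *Usf3*, so its counts are no independent evidence. These 3 passed, where 0.0993% of all genes were upregulated past the test. On the list 21 were higher and 13 lower, 8 and 1 of them at an unadjusted p under 0.05 (23.5% and 2.94%, against 6.31% and 5.13% of all genes). The transcripts of this list had a median length of 7.43 kb, and its median went from 0.03 to 0.01 with the length and GC correction.

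Among 22 zinc transporter and metallothionein genes, the exporter *Slc30a7* was higher without overlap, at 23.1 to 23.9 CPM in WD and 24.6 to 27.03 CPM in WD + CHP, and the importers *Slc39a1* (72.5 to 77.7 and 67.98 to 71.1 CPM) and *Slc39a13* (37.6 to 39.5 and 33.7 to 37.03 CPM) lower without overlap, where 1.52% of all genes were higher and 0.835% lower without overlap. None of the 3 passed (edgeR adjusted p 0.125 to 0.214), and the differences were no larger than 0.14 on the log2 scale. In the clock list (21 genes) *Clock* gave 0.20 ± 0.07 and the kinase *Csnk1e* -0.13 ± 0.06. Of 11 cell cycle genes *Pcna*, the sliding clamp of DNA replication, was lower without overlap, like 0.835% of all genes, at 23.3 to 26.02 CPM in WD and 20.2 to 22.98 CPM in WD + CHP. Nuclear long non-coding RNAs (10 tested) had a median of 0.01, with *Malat1* (0.22 ± 0.10) and *Pvt1* (0.40 ± 0.18) higher at an unadjusted p under 0.05 (20%, against 6.31% of all genes). The 8 tested diacylglycerol kinases, a list also chosen with results of these data known, had a median of -0.0014. Of them *Dgkh* alone passed, where 0.0993% of all genes were upregulated past the test. The 10 genes of the renin-angiotensin system had a median of -0.00025, with *Ace* higher at an unadjusted p under 0.05 (10%, against 6.31% of all genes). The summed level of the 5 red blood cell genes varied from 34.3 to 206 CPM in WD and from 12.6 to 260 CPM in WD + CHP.

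The genes closest to the administered peptide itself did not differ past the test. *Trh*, *Trhr* and *Trhde*, for TRH, its receptor and its degrading enzyme, had at most 1, 11 and 1 counts in any of the 10 libraries and were not tested. The 12 tested genes of peptide transport and breakdown had a median of -0.0047. *Slc15a2*, the proton-coupled peptide transporter of the tubule, was at 108, 90.6, 61.8, 69.1 and 80.6 CPM in WD and 76.6, 108, 60.4, 76.2 and 71.2 CPM in WD + CHP (-0.06 ± 0.20, edgeR adjusted p = 0.949), and its sign turned when WD replicate 1 (0.061) or WD + CHP replicate 3 (0.024) was left out. *Pgpep1*, which removes the pyroglutamate cap of TRH, was at 156 to 179 CPM in WD and 151 to 193 CPM in WD + CHP. The peptidases *Ace* (0.25 ± 0.09), *Dpp7* (0.19 ± 0.10) and *Dpp4* (0.10 ± 0.06) had the smallest p of the list, from 0.0168 to 0.0989 before adjustment.

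CHP was compared with water on WD in gastrocnemius in a model over all 30 libraries of both tissues, with 18708 genes tested. That is not the kidney fit above, so the shares are not like for like with the kidney's. In gastrocnemius 0 of the 18 genes passed edgeR's adjusted threshold, where 0.925% of all genes did. Of the 18, 1 (*Chd9*, lower in WD + CHP) had an unadjusted p under 0.05, where 13.4% of all genes lay. Fold changes of the 18 ran from -0.20 to 0.11, with the kidney's sign in 5 of 18. The difference between the tissues was tested in the same model. The labels do not say whether kidney and muscle came from the same mice, and the model takes the libraries as independent, so its errors, its adjusted p-values and its counts rest on that. The effect of CHP differed in 65 of 18708 genes (0.347%), 54 of them with a higher value in kidney, and 7 of the 18 were among them. The 18 were chosen for their change in the same kidney libraries, so their share among the 65 is set in part by that choice. The differences, kidney minus gastrocnemius on the log2 scale, were 1.44 ± 0.30 for *Lcor*, 0.47 ± 0.09 for *Dmxl2*, 0.46 ± 0.08 for *Chd9* and 0.43 ± 0.09 for *Ranbp2* (edgeR adjusted p 0.0140 to 0.0326). *Usf3* (0.39 ± 0.09), *Usp34* (0.38 ± 0.07) and *Vps13b* (0.34 ± 0.07) made up the 7. For *Actb* the difference of -0.30 ± 0.08 did not pass (edgeR adjusted p = 0.0953), and for *Pkhd1*, at low counts in muscle, it was 0.55 ± 0.62. The count of 65 fell to between 19 and 36 when gastrocnemius WD replicate 1, gastrocnemius WD + CHP replicate 3 or 5, kidney WD replicate 1 or kidney WD + CHP replicate 4 was left out, and it rose to 145 and 113 without gastrocnemius WD replicate 4 and 5.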

How the data were processed

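Total RNA of kidney and gastrocnemius was sequenced on the BGISEQ-500 after polyA selection. The authors cleaned reads with SOAPnuke, checked them with FastQC, aligned them with STAR 2.7.3a (build GRCm38/mm10 in the submitters' processing notes) and deposited whole-number read counts per gene. The counter, its annotation and the use of strand are not given in the sources used here. Depending on that rule, reads of overlapping genes could be merged or left out, which was not tested.

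Counts were tested as deposited with edgeR 4.0.16 (R 4.3.3): filterByExpr with a minimum count of 10, TMM scaling and the quasi-likelihood F test with CD, WD and WD + CHP (15 libraries) in 1 fit, with Benjamini-Hochberg adjustment over 17120 genes and a threshold of 0.05. CPM uses TMM-scaled library sizes, and SEs were derived from the F statistic. Gastrocnemius values and tissue differences came from 1 fit over 30 libraries. Transcript length and GC content came from GENCODE M21, which matched 54809 of 54838 genes. Named genes were those past the threshold, the 8 largest rises and falls without overlap, the 3 genes of each list with the smallest unadjusted p, the actins and the peptide and TRH genes. The comparison and the 43 gene lists were chosen with earlier results of these data known. DESeq2 1.42.0, limma 3.58.1, other scalings and filters, a replicate block, a length and GC correction and leaving out libraries were the alternatives.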

Additional observations from a re-analysis of the deposited data

Results flagged for a closer look

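In a search of 200 groups of 5 libraries (log2 CPM of the genes named here in WD and in WD + CHP), 15 (7.5%) held a library far from the other 4 by Dixon's test, where chance gives about 5%. In WD replicate 5 these were *Alb* (424 CPM, others 15.1 to 21.0), *Apoa1* (55.4 CPM, others 0.739 to 1.09), *Apoa2* (44.8 CPM, others 3.58 to 3.93) and *Cpne2* (11.2 CPM, others 6.15 to 6.69). In WD + CHP replicate 5 they were *Slc22a7* (16.2 CPM, others 97.7 to 122), *Idi1* (19.0 CPM, others 25.4 to 28.1), *Lrp1* (42.7 CPM, others 48.9 to 51.1), *Pdgfrb* (25.0 CPM, others 35.4 to 37.5) and *Cdkn1c* (12.8 CPM, others 9.37 to 9.80). Single values elsewhere were *Rev3l* in WD replicate 4 (20.1 CPM, others 22.2 to 22.5), *Acaa2* in WD replicate 1 (148 CPM, others 136 to 138), *Csnk1e* in WD replicate 3 (12.4 CPM, others 13.4 to 13.7), *Klhl11* in WD + CHP replicate 4 (3.08 CPM, others 2.40 to 2.56), *Sos1* in WD + CHP replicate 4 (55.2 CPM, others 45.4 to 47.7) and *Pcna* in WD + CHP replicate 1 (20.2 CPM, others 22.4 to 22.98).

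The effect of CHP differed between kidney and gastrocnemius, by the test of the difference in edgeR, in 65 genes. Of the genes named here these were *Lcor* (1.44, kidney minus gastrocnemius on the log2 scale), *Dmxl2* (0.47), *Chd9* (0.46), *Ranbp2* (0.43), *Usf3* (0.39), *Usp34* (0.38), *Vps13b* (0.34), the peptidase *Dpp4* (0.62) and *Eng* (-0.50). The named genes were chosen in part by their values in the same kidney libraries.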

How the results depend on the processing

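The count of 18 kidney genes became 194 with DESeq2, 37 without a filter on low counts, 75 at an adjusted p under 0.1, and 0 with the length and GC correction or with the CD libraries out of the fit. Leaving out 1 library gave 0 to 97 calls. Without the replicates 5 of both groups together, chosen after seeing the data, 19 passed, 6 of them among the 18. The count of 65 tissue differences became 284 with DESeq2, 99 with total count scaling, 37 without the filter and 160 at an adjusted p under 0.1, and leaving out 1 library gave 19 to 145. The cause of these shifts was not tested. With total count scaling the median of all genes went from -0.0058 to -0.039, and with this shift of every gene the medians of 6 lists turned from positive to negative (ERK, apoptosis, distal convoluted tubule, long non-coding RNAs, coregulators and zinc).

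With the replicate number as a block 70 genes passed, and 26 with the block and the length and GC correction, against 18. The 70 held all 18, and the 26 held 10 of them. The numbers were not taken to pair libraries, since same-numbered libraries correlated at -0.035 to 0.087 and 1 of 5 correlated best with its own number.

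Over 100 named genes and 2600 gene settings, 2379 kept their direction and side of the threshold, 184 fell below it, 29 came to pass it and 8 reversed. Only the 18 genes called in the main kidney fit could fall below the threshold, so all 184 losses were theirs. The other named genes had not passed, and they counted as kept when they again did not pass and held their direction. The 2379 is therefore no measure of how stable the 18 calls were. *Slc15a2* reversed to 0.061 without WD replicate 1 and 0.024 without WD + CHP replicate 3, in a range of -0.20 to 0.061 with single libraries left out. *Alb*, *Apoa1* and *Apoa2* reversed to 0.165, 0.726 and 0.0592 without WD replicate 5, and to 0.140, 0.928 and 0.119 without both replicates 5. With single libraries left out they ranged from -2.58 to 0.165, -3.56 to 0.726 and -1.85 to 0.0592. The T and NK cell markers rest on few reads, and 5 libraries a group limit the detection of changes under the spread between libraries.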
